A study of Homo sapiens with 6 samples.

Results

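Chemokines and their receptors were followed through 6 RNA sequencing libraries of SW1990, an established human pancreatic adenocarcinoma cell line. The members were all genes whose symbol is CXCL, CCL, XCL or CX3CL, or CXCR, CCR, XCR or CX3CR, followed only by a number, together with IL8 (CXCL8 in current naming). Where a symbol was repeated, the entry of highest mean was kept. This gave 60 of the 19077 genes in the deposited table, 41 of them ligands and 19 receptors. The parental group was 1 library of the unsorted line grown in DMEM/F-12 medium with 10% fetal bovine serum. The resistant group was 1 library of a resistant derivative grown with 100 nM gemcitabine, a cytidine analogue and standard pancreatic cancer drug, and the labels do not say whether it is a clone. The remaining 4 libraries came from parental cells separated by flow cytometry on TRA-1-81, a surface glycan also found on pluripotent stem cells. Of these, 2 were positive and 2 negative, and each fraction has 1 library numbered 0603 and 1 numbered 0610. The labels do not say what the numbers mark or whether the cultures were separate. P-values therefore reflect nothing but the spread of these libraries, which may be technical.

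Chemokines are small secreted proteins that direct the migration of cells carrying matching G protein-coupled receptors. CXC ligands with a glutamate-leucine-arginine (ELR) motif before their first cysteines attract neutrophils and promote vessel growth through CXCR1 and CXCR2, while CXCL9, CXCL10 and CXCL11 are induced by interferons and attract T cells through CXCR3. In pancreatic tumours, ligands made by the cancer cells are known to recruit neutrophils, macrophages and regulatory T cells. CC ligands have their first cysteines adjacent and act mostly through the CCR receptors.

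Values were taken as FPKM (fragments normalised for transcript length and for the number mapped), so levels can be compared between genes per length. Between 11164 and 11729 genes per library reached an FPKM of 1. Fragment totals are not part of the table, and the lowest nonzero values among short olfactory receptor genes place 3 fragments on a 1 kb transcript at an FPKM of roughly 0.169 (parental), 0.145 (resistant) and 0.0949 to 0.111 (sorted). In 7 genes of the table, a 0 in 1 library stood beside values of 5 or more in the remaining 5, so a 0 can be a failed estimate, although 0 of these genes were members. Across genes, log2 values correlated at 0.942 between parental and resistant, at 0.975 to 0.98 between parental and sorted, and at 0.996 to 0.998 among sorted libraries. The epithelial markers EPCAM, CDH1, KRT8, KRT18 and KRT19 all reached an FPKM of 1, with a summed FPKM of 5233 in parental, 3006 in resistant and 4217 to 5217 in sorted libraries. Of 8 leukocyte markers, CD68 and LYZ reached 1, the pan-leukocyte gene PTPRC stayed at or under 0.0205, and FCGR3A was listed at 0. The leukocyte sum was 19.3 in parental, 54.6 in resistant and 22.6 to 29.3 in sorted libraries, most of it CD68, a lysosomal protein gene that ran from 15.6 to 51.9. Of 6 fibroblast markers, COL1A1 and LUM reached 1, and the sum was 2.86 in parental, 20.2 in resistant and 4.36 to 5.38 in sorted libraries. COL1A1 (2.04 to 14.1) and LUM (0.729 to 6.04) were both highest in resistant. COL1A2, COL3A1 and DCN stayed under 0.1, and PDGFRB ran up to 0.317. Of 4 endothelial markers, CDH5 reached 1, and the sum was 3.01, 1.05 and 2.15 to 4.79. The part of these markers in the results was not tested.

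The 6 ELR ligands within the symbol rule are printed first because their start regions share a short sequence and all 6 were expressed in resistant cells. In RefSeq promoters of build GRCh38.p14, which cover 250 bases before to 50 bases after each gene start, 44 members had an entry. The letters GGAATTTCC, a form of the NF-kB binding site, were searched on both strands. They occurred in 162 of 35116 promoters (0.461%) and in 8 of the 44 members, namely all 6 ELR ligands, CXCL10 and CXCL11. Here and below, promoters are counted as entries (35116 for 27305 symbols), whereas a member counts once if any of its entries matches. The shares are therefore not in the same unit. In the ELR ligands the match began between 91 bases (IL8) and 77 bases (CXCL2) before the start. The letters GAAA, any 2 bases and again GAAA, a core of the interferon-stimulated response element, were also searched on both strands. They occurred in 1255 promoters (3.57%) and in 4 of 44 members, CXCL9, CXCL10, CCR6 and XCR1. A match describes the sequence and does not show that a factor binds there. The stretches below run 5′ to 3′ on the gene's own strand, with the matched letters in capitals. All are the last 100 bases before the start, except that of CXCL10, which spans 230 to 131 bases before it and holds both motifs, 221 and 176 bases before the start. In CXCL10 and CXCL11 the capitals GGAAATTCC are the reverse complement of GGAATTTCC.
IL8 (chr4:73740469-73740568, plus strand): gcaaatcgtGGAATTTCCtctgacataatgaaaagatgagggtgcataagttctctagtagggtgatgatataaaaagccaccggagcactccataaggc
CXCL1 (chr4:73869293-73869392, plus strand): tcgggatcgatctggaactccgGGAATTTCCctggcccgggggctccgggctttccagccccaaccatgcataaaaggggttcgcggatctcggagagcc
CXCL2 (chr4:74099196-74099295, minus strand): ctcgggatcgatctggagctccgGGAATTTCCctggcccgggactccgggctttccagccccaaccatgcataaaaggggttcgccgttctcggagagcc
CXCL3 (chr4:74038690-74038789, minus strand): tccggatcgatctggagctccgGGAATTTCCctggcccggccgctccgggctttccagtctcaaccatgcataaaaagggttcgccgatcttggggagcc
CXCL5 (chr4:73998678-73998777, minus strand): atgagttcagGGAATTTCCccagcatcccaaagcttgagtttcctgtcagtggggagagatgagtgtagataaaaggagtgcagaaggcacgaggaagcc
CXCL6 (chr4:73836578-73836677, plus strand): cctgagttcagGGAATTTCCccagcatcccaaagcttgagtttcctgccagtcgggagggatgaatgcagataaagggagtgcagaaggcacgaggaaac
CXCL11 (chr4:76036071-76036170, minus strand): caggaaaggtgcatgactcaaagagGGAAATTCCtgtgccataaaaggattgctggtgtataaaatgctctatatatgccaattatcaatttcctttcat
CXCL10 (chr4:76023628-76023727, minus strand): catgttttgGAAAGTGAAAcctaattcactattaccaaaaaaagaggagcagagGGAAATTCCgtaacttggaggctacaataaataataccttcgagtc
Aligned at the match without gaps, the windows of CXCL5 and CXCL6 were identical at 91.9% of 99 bases and those of CXCL1 and CXCL3 at 90.0% of 100, whereas IL8 shared 26.4% to 36.4% with the other 5. CXCL2 shared 62.6% with CXCL1 and 58.6% with CXCL3, a comparison that understates likeness where windows differ by an inserted base. CXCL1, CXCL2 and CXCL3 also share stretches of their transcripts. Of the 50-base words in the longest coding transcript (GENCODE v29), 5.73% in CXCL1, 9.24% in CXCL2 and 5.26% in CXCL3 also occurred in another of these 3, so their FPKM values may in part depend on how shared fragments were assigned. CXCL5, CXCL6, IL8 and the other members that reached an FPKM of 1 in any library shared 0 such words with any member. Of the low receptors, CXCR1 shared 5.13% of its words with CXCR2, and CXCR2 shared 4.42% with CXCR1.

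Most of the family was silent or near silent in SW1990. In all 6 libraries 15 members were listed at 0, 26 were above 0 in some library but under an FPKM of 1 in all, and 19 reached 1 in at least 1 library, 16 ligands and 3 receptors. In all, 8 members reached 1 in parental, 17 in resistant and 10 or 11 in each sorted library. The summed FPKM of all members was 32.6 in parental, 485 in resistant, 114 and 145.8 in the positive libraries and 95.2 and 129 in the negative ones (0603 first). The resistant library thus had the highest sum and unsorted parental cells the lowest. A lower FPKM cannot separate fewer expressing cells from less RNA per cell. Members listed at 0 throughout were CCL1, CCL4, CCL7, CCL8, CCL11, CCL13, CCL14, CCL15, CCL18, CCL19, CCL21, CCL23, XCL2, CCR8 and CX3CR1. Those above 0 in some library but under 1 in all included the ligands CCL2, CCL3, CCL16, CCL24, CCL25, CCL27, CXCL9, CXCL13, CXCL14, CXCL17, XCL1 and CX3CL1 and the receptors CXCR1, CXCR2, CXCR3, CXCR5, CCR1, CCR2, CCR3, CCR4, CCR6, CCR7, CCR9, CCR10 and XCR1. The highest value among these 41 members was 0.479, for CCR7 in the resistant library.

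**Figure D1:**
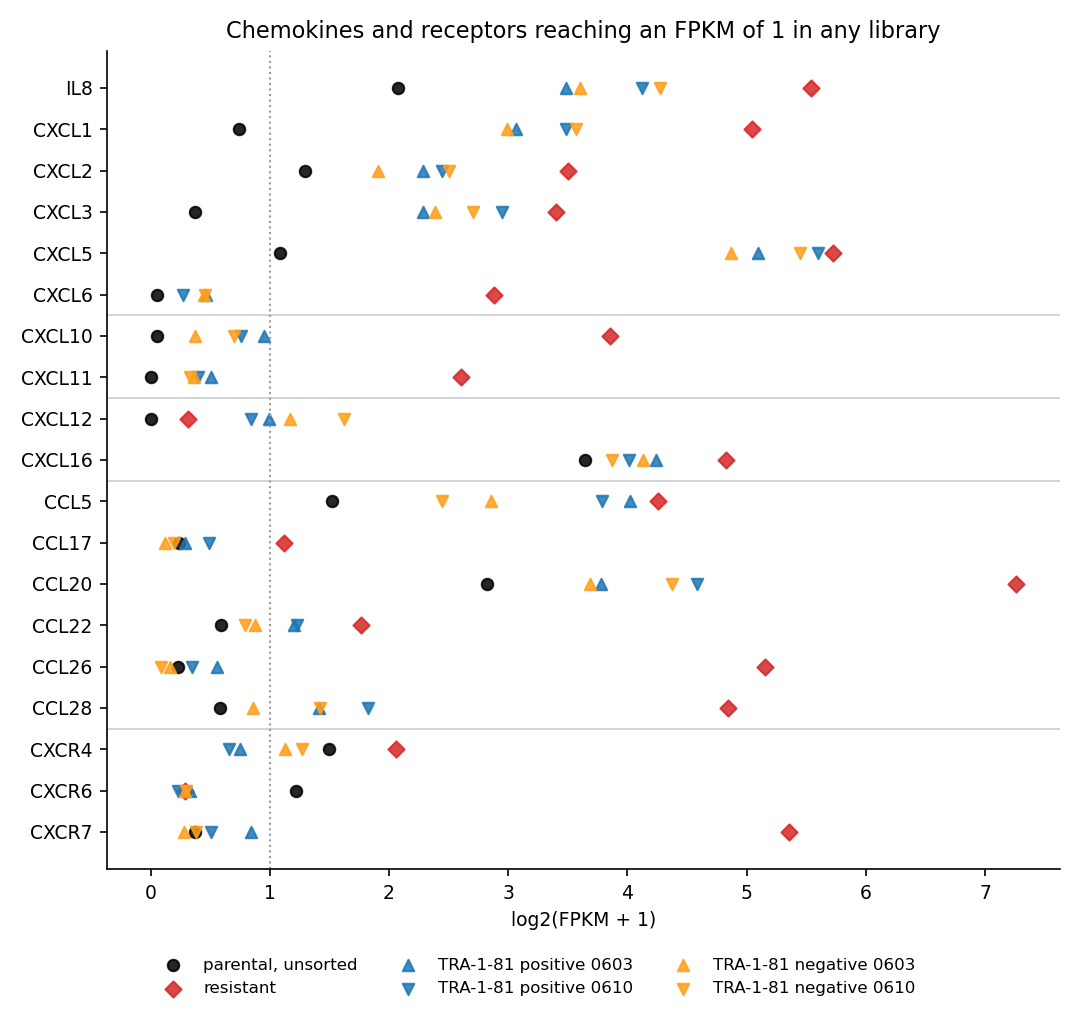
Levels of the 19 members that reached an FPKM of 1 in any library, as log2(FPKM + 1) on the horizontal axis, with 1 point for each of the 6 libraries and a dotted line at an FPKM of 1. The resistant library is the rightmost point for 17 of the 19 genes, all but CXCL12 and CXCR6, and CCL20 is the highest value at 153 FPKM.

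Among ligands, the ELR group had members at an FPKM of 1 in every library: all 6 in resistant, 5 in every sorted library and 3 in parental. IL8, the principal neutrophil attractant of the group, was at 3.21 FPKM in parental, 45.5 in resistant, 10.2 and 16.4 in the positive libraries 0603 and 0610, and 11.2 and 18.3 in the negative libraries 0603 and 0610, an order of libraries kept in what follows. CXCL5, a neutrophil attractant of epithelial cells, was at 1.12 FPKM in parental, 51.7 in resistant, 33.1 and 47.4 in positive and 28.2 and 42.6 in negative libraries. CXCL1, a ligand of CXCR2 first known as a melanoma growth factor, was at 0.668, 32.1, 7.36 and 10.2, and 6.95 and 10.9 FPKM. For all 3, parental was lowest, resistant highest and the sorted libraries between. For CXCL5 the sorted libraries lay close to resistant, and for IL8 and CXCL1 they lay well below it.

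CXCL2, a close paralog of CXCL1, was at 1.46 FPKM in parental, 10.3 in resistant, 3.87 and 4.45 in positive and 2.76 and 4.69 in negative libraries. CXCL3, the third of these paralogs, was at 0.297, 9.56, 3.89 and 6.70, and 4.24 and 5.51 FPKM. CXCL6, which can act through CXCR1 as well as CXCR2, was at 0.0399, 6.38, 0.379 and 0.204, and 0.362 and 0.370 FPKM. All 3 again had resistant highest and parental lowest, but CXCL6 stayed under 0.4 in every library except resistant.

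Differences are given on the log2(FPKM + 1) scale, on which changes of low genes come out too small. A gene was counted as 2-fold different at a difference of at least 1 when its FPKM reached 1 on either side, and the sorted mean is the mean of the 4 sorted log2 values. With 1 library on a side there was no replicate check and no test. Between resistant and parental, the difference was 4.63 for CXCL5, 4.31 for CXCL1, 3.47 for IL8, 3.03 for CXCL3, 2.83 for CXCL6 and 2.20 for CXCL2. Between resistant and the sorted mean, it was 2.48 for CXCL6, 1.77 for CXCL1, 1.67 for IL8, 1.21 for CXCL2, 0.82 for CXCL3 and 0.47 for CXCL5. Between the sorted mean and unsorted parental, it was 4.17 for CXCL5, 2.54 for CXCL1, 2.21 for CXCL3, 1.80 for IL8, 0.99 for CXCL2 and 0.35 for CXCL6. CXCL6 was under an FPKM of 1 on both sides there. CXCL5 had the 6th highest difference of 11660 genes in the last comparison. In linear FPKM, CXCL5 was 46.1 times higher in resistant than in parental and 1.37 times higher than the sorted average. The first and last of these comparisons share the parental library, and the first 2 share the resistant one. Sorting, culture and any batch difference cannot be told apart between sorted and unsorted libraries, and resistance cannot be told apart from the presence of gemcitabine.

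The make-up of the ELR group also differed between libraries. Its summed FPKM was 6.79 in parental, 155.5 in resistant, 58.8 and 85.4 in positive and 53.7 and 82.4 in negative libraries. IL8 made up 47.2% of the sum in parental, 29.3% in resistant and 17.4% to 22.3% in sorted libraries. CXCL5 made up 16.5% in parental, 33.3% in resistant and 51.7% to 56.3% in sorted libraries. IL8 was thus the leading ELR ligand of unsorted parental cells, and CXCL5 that of the sorted cells and, by a small margin over IL8, of the resistant cells. CXCL2 made up 21.5% in parental and 6.62% in resistant cells.

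These 6 genes lie together on chromosome 4 (hg19, 74606223 to 74964997), a stretch of 359 kb that holds 9 chemokine genes of the table. The other 3 encode platelet chemokines and are outside the symbol rule: PF4 and PF4V1 were listed at 0 in all libraries, and PPBP ran from 0.0311 to 0.141 FPKM. Of these 9 chemokine genes, the 6 within the symbol rule thus reached an FPKM of 1, while the 3 interspersed platelet genes stayed at or near 0.

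**Figure D2:**
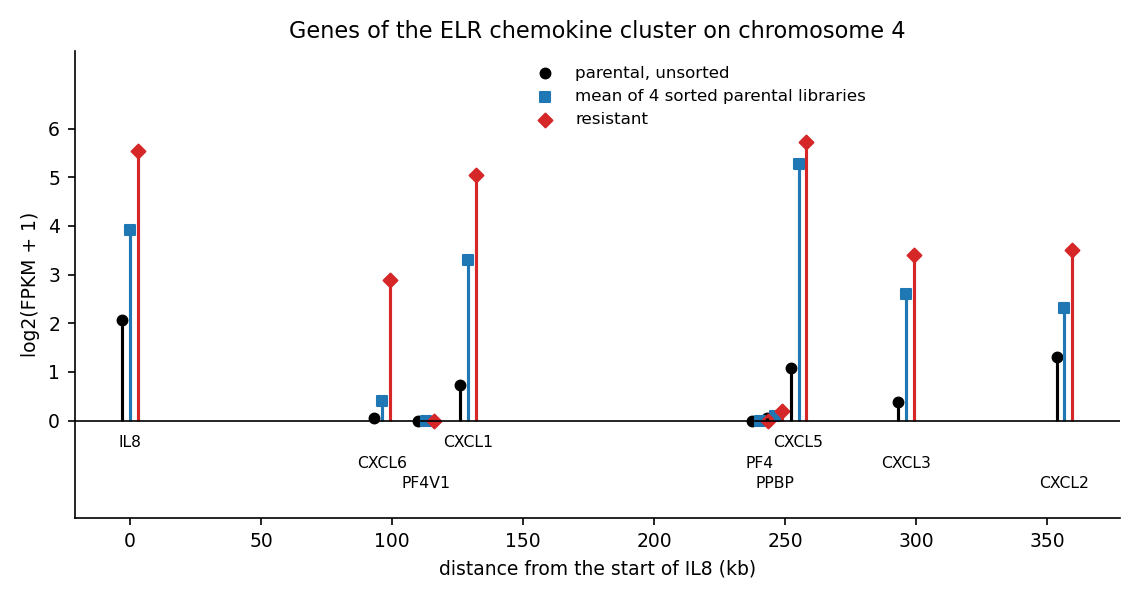
Genes of the ELR chemokine cluster on chromosome 4, with distance from the start of IL8 in kb on the horizontal axis and log2(FPKM + 1) on the vertical axis for parental, the arithmetic mean FPKM of the 4 sorted libraries, and resistant. PF4 and PF4V1 sit at 0 and PPBP at or under 0.141 FPKM, between members of the symbol rule that reach 6.38 to 51.7 FPKM in the resistant library.

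The interferon-inducible CXC ligands stayed under an FPKM of 1 in every library except resistant. CXCL10, a T cell attractant, was at 0.0365 FPKM in parental, 13.5 in resistant, 0.932 and 0.689 in positive and 0.293 and 0.628 in negative libraries. CXCL11, which binds CXCR3 and CXCR7, was listed at 0 in parental and was at 5.08 in resistant, 0.424 and 0.322 in positive and 0.287 and 0.259 FPKM in negative libraries. CXCL9, the member most closely tied to interferon gamma, was at 0.185 FPKM in resistant and at or under 0.0272 elsewhere. CXCL10 and CXCL11 were each above all 5 other libraries in resistant, whereas CXCL9 never reached 1. The resistant minus sorted difference was 3.16 for CXCL10 and 2.20 for CXCL11, and the resistant minus parental difference was 3.81 for CXCL10. No ratio is given for CXCL11 against parental, where it is listed at 0. The 3 genes lie within 34.7 kb on chromosome 4 (hg19, 76922623 to 76957350).

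Of the other CXC ligands, 2 reached an FPKM of 1, and they went different ways. CXCL16, a transmembrane ligand that is shed by ADAM10 and ADAM17 and binds CXCR6, was at 11.5 FPKM in parental, 27.3 in resistant, 17.9 and 15.2 in positive and 16.5 and 13.6 in negative libraries. It was the highest member in parental cells and varied least of the ligands named here that reached 1 in all 6 libraries, with a resistant minus parental difference of 1.18. CXCL12, the ligand of CXCR4 and CXCR7, was listed at 0 in parental and was at 0.245 in resistant, 0.992 and 0.795 in positive and 1.25 and 2.08 FPKM in negative libraries. It was 1 of 2 named members for which resistant was not the highest library, with a resistant minus sorted difference of -0.84.

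Among CC ligands, resistant cells had the highest level of all 6 that reached an FPKM of 1. CCL20, the ligand of CCR6, which attracts Th17 cells and dendritic cell precursors (hg19 chromosome 2, 228678558 to 228682280), was at 6.06 FPKM in parental, 153 in resistant, 12.7 and 23.0 in positive and 11.9 and 19.7 in negative libraries. It was the highest member in resistant cells and second to CXCL16 in parental cells, and resistant was 25.2 times parental and 9.06 times the sorted average. CCL26, an eosinophil attractant acting through CCR3 (hg19 chromosome 7, 75398842 to 75419064), was at 0.173, 34.5, 0.473 and 0.273, and 0.119 and 0.0656 FPKM. CCL28, a mucosal ligand of CCR10 and CCR3 (hg19 chromosome 5, 43381600 to 43412488), was at 0.498, 27.6, 1.66 and 2.55, and 0.813 and 1.68 FPKM. In all 3 genes the resistant library stood above the other 5 by a wide margin, and for CCL26 the other 5 were all under 0.5. The resistant minus parental difference was 4.92 for CCL26, 4.44 for CCL20 and 4.26 for CCL28, and the resistant minus sorted difference was 4.86, 3.16 and 3.46 in the same order. CCL26 ranked 28th highest of 12066 genes in the first comparison and 7th of 12042 in the second. Its neighbour CCL24, which with CCL26 spans 44.2 kb and is also an eosinophil attractant, was at 0.411 FPKM in resistant and listed at 0 in the other 5.

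CCL5, an attractant of T cells and monocytes, was at 1.87 FPKM in parental, 18.1 in resistant, 15.2 and 12.8 in positive and 6.24 and 4.45 in negative libraries. Its level in the positive libraries lay close to resistant. CCL22, a ligand of CCR4, was at 0.510, 2.41, 1.30 and 1.34, and 0.841 and 0.732 FPKM. CCL17, another ligand of CCR4, was at 0.180, 1.17, 0.223 and 0.404, and 0.0907 and 0.145 FPKM. Both CCR4 ligands were low, with resistant highest. The resistant minus parental difference was 2.73 for CCL5, 1.18 for CCL22 and 0.88 for CCL17. CCL22, CCL17 and CX3CL1 lie within 57.3 kb on chromosome 16, where CX3CL1, the transmembrane ligand fractalkine, did not exceed 0.0429 FPKM. On chromosome 17, the 6 members from CCL2 to CCL1 (108 kb) had 5 members listed at 0 throughout and 0 that reached 1, and CCL5 was the member to reach 1 among the 8 members of a second run of 235 kb.

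Receptors were sparse, and 3 of 19 reached an FPKM of 1. CXCR7 (ACKR3 in current naming), an atypical receptor that binds and takes up CXCL11 and CXCL12 without G protein signalling (hg19 chromosome 2, 237478380 to 237490994), was at 0.298 FPKM in parental, 40.02 in resistant, 0.795 and 0.422 in positive and 0.216 and 0.306 in negative libraries. CXCR4, the signalling receptor of CXCL12, was at 1.83, 3.18, 0.684 and 0.581, and 1.18 and 1.41 FPKM. CXCR6, the receptor of CXCL16, was at 1.34, 0.221, 0.257 and 0.176, and 0.220 and 0.230 FPKM. The 3 differed in which library was high: CXCR7 was above 1 in resistant alone, CXCR4 was highest in resistant and next in parental, and CXCR6 was above 1 in parental alone. The resistant minus parental difference was 4.98 for CXCR7, 0.56 for CXCR4 and -0.94 for CXCR6. The resistant minus sorted difference was 4.85 for CXCR7, 1.11 for CXCR4 and 0.00 for CXCR6. CXCR7 ranked 26th of 12066 genes in the first and 8th of 12042 in the second comparison.

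Set beside their ligands, the receptors of the most expressed ligands were low in every library. CXCR1 did not exceed 0.0194 FPKM and CXCR2 ran from 0.0957 to 0.223, against ELR sums of 6.79 to 155.5. CCR6, the receptor of CCL20, ran from 0.241 to 0.351. CCR3 did not exceed 0.0240, CCR10 0.132, CCR4 0.0277 and CXCR3 0.0894. Each of these receptors thus stayed under 1 where its ligand was at its highest, and several values are near the level of a few fragments. The pair with both sides above 1 in the resistant library was CXCL11 with CXCR7. In parental cells it was CXCL16 with CXCR6, and in both negative libraries CXCL12 with CXCR4.

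Over the whole family, 18 members were measured between resistant and parental, that is, with an FPKM of 1 in either. Of these, 15 were at least 2-fold higher in resistant, against 13.5% of all measured genes, and 0 were at least 2-fold lower, against 6.9%. The 15 were all 6 ELR ligands, CXCL10, CXCL11, CXCL16, 5 CC ligands and CXCR7. However, 10 of the 18 were measured only through the resistant library and so had to be higher there. Among the 8 members already at 1 in parental, 6 were at least 2-fold higher and 0 lower, where 9.32% and 7.45% of 11164 such genes were. Those 6 were IL8, CXCL2, CXCL5, CXCL16, CCL5 and CCL20. The median difference was 2.93 over the 18 measured members and 0.05 over all 60, beside 0.09 over all measured genes.

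Against the sorted mean, 18 members were measured, 11 were at least 2-fold higher in resistant, against 8.26% of all genes, and 0 lower, against 4.94%. The 11 were IL8, CXCL1, CXCL2, CXCL6, CXCL10, CXCL11, CCL20, CCL26, CCL28, CXCR4 and CXCR7, and 7 of the 18 were measured only through the resistant library and so could only be higher there. Among the 11 members already at 1 in the sorted mean, 5 were at least 2-fold higher (IL8, CXCL1, CXCL2, CCL20 and CCL28) and 0 lower, where 6.25% and 5.19% of 11463 such genes were. CXCL5, CXCL3, CXCL16, CCL5, CCL17 and CCL22 did not reach a log2(FPKM + 1) difference of 1 in this comparison. In linear FPKM, the low genes CCL17 and CCL22 were 5.43 and 2.29 times the sorted average. Between the sorted mean and parental, 13 members were measured, 7 were at least 2-fold higher in sorted cells, against 5.46% of all genes, and 0 lower, against 2.11%. The 7 were IL8, CXCL1, CXCL3, CXCL5, CXCL12, CCL5 and CCL20, and 5 of the 13 were measured only through the sorted libraries. Among the 8 members at 1 in parental, 4 were at least 2-fold higher in sorted cells (IL8, CXCL5, CCL5 and CCL20) and 0 lower, where 4.22% and 2.2% of 11164 such genes were. CXCL1, IL8 and CCL20 were thus 2-fold apart at both steps. CXCL6, CXCL10, CXCL11, CCL17, CCL26 and CXCR7 were under 1 in parental and in the sorted mean, so the step from parental to sorted was not measured for them. Just under a difference of 1 were CXCL2 at 0.99 in the sorted minus parental and CCL5 at 0.97 in the resistant minus sorted difference.

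**Figure D3:**
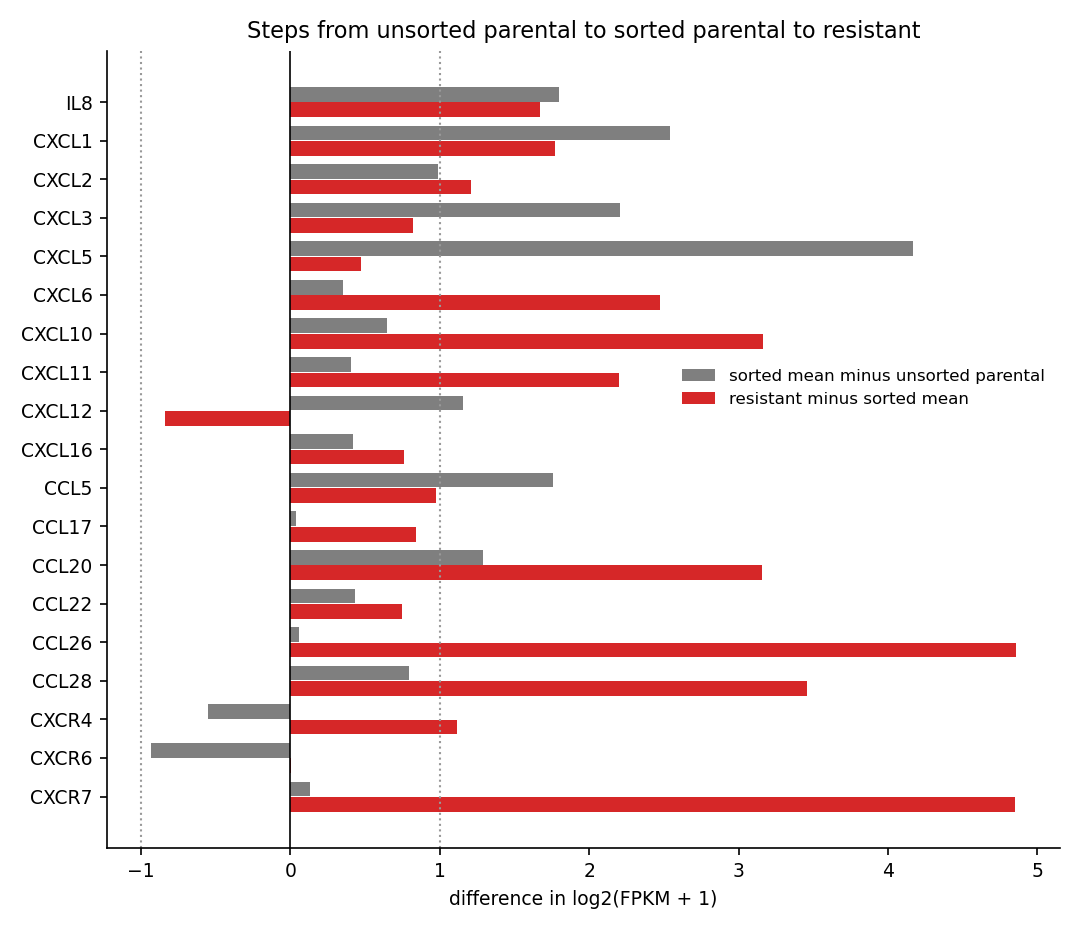
Differences in log2(FPKM + 1) for the 19 members that reached an FPKM of 1, drawn as bars from 0 for the sorted mean minus unsorted parental and for resistant minus the sorted mean. CXCL5 has its larger bar at the first step (4.17 against 0.47), and CXCR7 and CCL26 have theirs at the second (4.85 and 4.86 against 0.13 and 0.06). For CXCR7 and CCL26 the first bar rests on values under an FPKM of 1 on both sides.

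TRA-1-81 positive and negative cells were compared by limma among genes that reached an FPKM of 1 in 2 or more sorted libraries, which left 12 members. By limma with Benjamini-Hochberg adjustment over all genes, 0 of the 12 passed an adjusted p of 0.05, against 0.00867% of 11533 genes (1 gene). At an unadjusted p under 0.05 there were 4 members, against 4.9% of genes. These were CCL5, CXCR4, CCL22 and CXCL12. CCL5 averaged 14.0 ± 1.70 FPKM over the positive and 5.35 ± 1.27 over the negative libraries (SD, n = 2 each). Its log2 difference was 1.25 ± 0.17 (SE) with an unadjusted limma p of 0.000952 and an adjusted p of 0.487. It was higher in positive cells within both numbers, by 1.16 in 0603 and 1.34 in 0610, and held rank 16 by p among all genes. The difference in CCL5 did not pass the correction.

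CCL22 averaged 1.32 ± 0.0266 FPKM over the positive and 0.787 ± 0.0764 over the negative libraries (mean ± SD of 2), a log2 difference of 0.38 ± 0.09 with an adjusted limma p of 0.664. CXCR4 averaged 0.632 ± 0.0728 and 1.29 ± 0.159, a log2 difference of -0.49 ± 0.10 with an adjusted limma p of 0.589. CXCL12, the ligand of CXCR4, averaged 0.893 ± 0.139 and 1.67 ± 0.584, a log2 difference of -0.48 ± 0.18 with an adjusted limma p of 0.993. The fractions did not overlap for these genes, with CXCR4 and its ligand both higher in negative cells, but none passed the correction. The differences within 0603 and 0610 were 0.32 and 0.43 for CCL22, -0.37 and -0.61 for CXCR4, and -0.18 and -0.78 for CXCL12. Both positive libraries were above both negative ones for 2 of the 12 members, CCL5 and CCL22, against 18.6% of genes. Both negative libraries were above both positive ones for 2, CXCL12 and CXCR4, against 12.0%. Each count thus lay near the share over all genes.

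The 5 tested ELR ligands overlapped between the fractions over all 4 sorted libraries. That overlap includes the difference between 0603 and 0610 and does not show that the fractions were alike. Within 0603 and 0610, the positive minus negative difference was 0.22 and 0.15 for CXCL5 and -0.12 and -0.15 for IL8. It changed sign between the numbers for CXCL1 (0.07 and -0.08), CXCL2 (0.37 and -0.06) and CXCL3 (-0.10 and 0.24). IL8 averaged 13.3 ± 4.40 FPKM in the positive and 14.8 ± 5.06 in the negative fraction, and CXCL5 40.3 ± 10.2 and 35.4 ± 10.2 (mean ± SD of 2). The neutrophil attractants thus had fraction means that lay closer together than the libraries within a fraction. CCL20 did likewise, at 17.9 ± 7.26 and 15.8 ± 5.52 FPKM, with log2 differences of 0.09 and 0.21 within 0603 and 0610.

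The spread within a fraction followed the library number. Both 0610 libraries were above both 0603 libraries for 7 of the 12 members, against 32.1% of genes: IL8, CXCL1, CXCL2, CXCL3, CXCL5, CCL20 and CCL28. Both 0603 libraries were above both 0610 libraries for 1 member, CXCL16, against 28.3%. The 0610 minus 0603 difference in positive and negative cells was 0.64 and 0.67 for IL8, 0.51 and 0.58 for CXCL5, and 0.80 and 0.68 for CCL20. For CXCL2 it was 0.16 and 0.60. IL1A, an inducer of these ligands named after its values were seen, was at 18.3 (0603) and 54.9 (0610) FPKM in positive and 15.6 and 47.8 in negative cells. IL1A was higher in 0610 in both fractions, and its part in the ligand levels was not tested. The NF-kB list from which it was picked went both ways. Of its genes named further below, TNFRSF1A and IKBKB were higher in 0610 in both fractions, whereas TNFAIP3 and IL1R1 were lower.

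**Figure D4:**
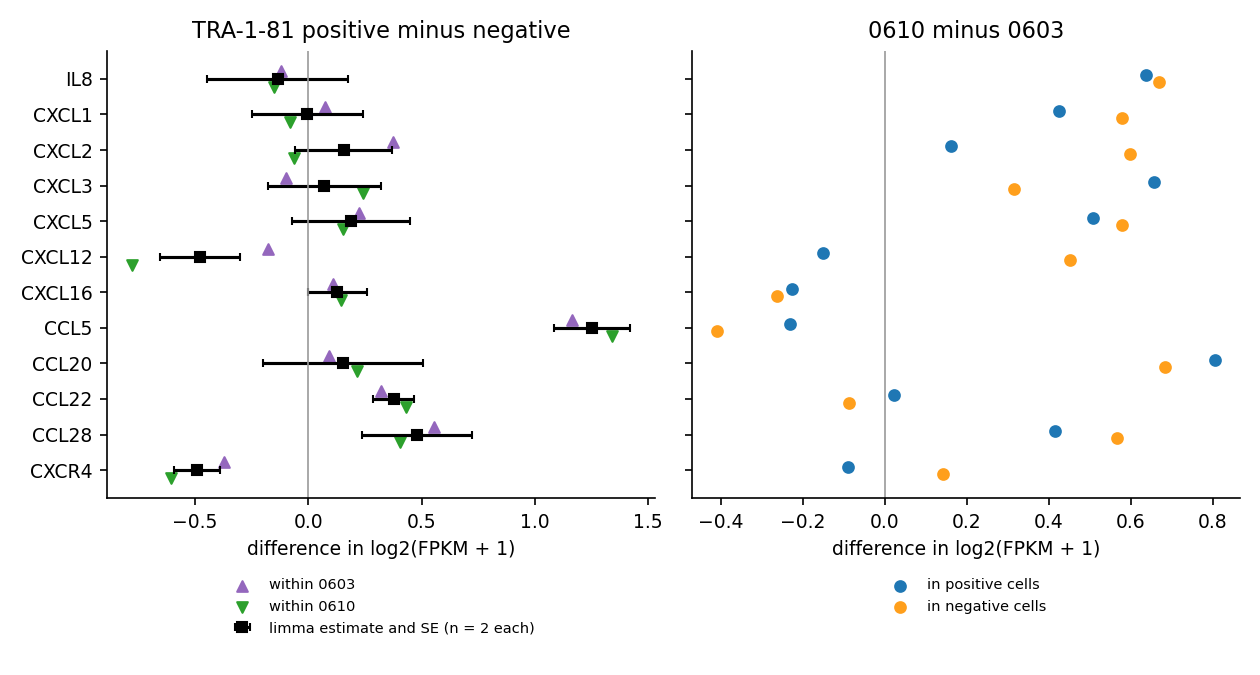
Differences in log2(FPKM + 1) for the 12 tested members: on the left positive minus negative, as the limma estimate with its SE (squares) and within each number (triangles), and on the right 0610 minus 0603 within each fraction (circles). CCL5 has the largest difference between fractions (1.16 and 1.34 within the numbers), while IL8 is near 0 on the left and at 0.64 and 0.67 on the right.

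Relatives outside the symbol rule and the other atypical receptors were mostly silent. Of 12 found in the table, 2 reached an FPKM of 1. CKLF, a chemokine-like factor, was at 53.8 in parental, 85.6 in resistant and 34.0 to 44.4 in sorted libraries. CCRL2, a receptor-like protein that binds chemerin, was at 13.9, 7.41 and 8.44 to 10.1. Neither was 2-fold different between resistant and parental, and CKLF was at least 2-fold higher against the sorted mean (1.11). PPBP, CCL3L1, CCL3L3, CCRL1 and CCBP2 stayed under 1, and PF4, PF4V1, CCL4L1, CCL4L2 and DARC were listed at 0.

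Genes that act downstream of the receptors were expressed as well. Of 30 signalling genes, 22 were measured between resistant and parental, with 4 at least 2-fold higher (13.5% of all genes), 2 lower (6.9%) and a median of 0.12 (0.09), which is near the shares over all genes. Some of the 22 were measured only through the resistant library and so could only be higher there. RGS2, which shortens G protein signals, was at 2.13 in parental, 18.5 in resistant and 4.48 to 5.96 FPKM in sorted libraries. GRK5, a kinase that desensitises receptors, was at 2.40, 18.5 and 5.14 to 6.28. The arrestins, which uncouple receptors and serve CXCR7, were lower: ARRB1 was at 14.3, 4.65 and 9.14 to 14.2, and ARRB2 at 15.1, 5.81 and 6.40 to 8.55 FPKM. Against the sorted mean, 4 genes were higher and 1, ARRB1, lower, beside 8.26% and 4.94% of all genes. The higher ones include a gene under 1 in every sorted library, which could only be higher in resistant.

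Of 10 proteases known to shed or trim chemokines, 7 were measured, with 4 at least 2-fold higher in resistant than parental and 1 lower, beside 13.5% and 6.9% of all genes. Some of the higher ones, MMP1 among them, were under an FPKM of 1 in parental and so could only be higher in resistant. MMP1, a collagenase, was at 0.967 FPKM in parental, 678 in resistant and 19.0 to 21.6 in sorted libraries. MMP13, another collagenase, was at 1.64, 208 and 6.89 to 10.8. ADAM17, a sheddase of CXCL16, was at 19.9, 9.34 and 17.6 to 24.6, whereas ADAM10, the other sheddase, was at 30.7, 33.5 and 41.7 to 45.2. PLAU, the urokinase gene, was at 133, 110.3 and 79.0 to 108 FPKM. Against the sorted mean, 2 proteases were higher and 1 lower, beside 8.26% and 4.94% of all genes.

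Of 23 genes of the NF-kB system and its inducing cytokines, 21 were measured between resistant and parental, with 13 at least 2-fold higher, 1 lower and a median of 1.68, beside 13.5%, 6.9% and 0.09 for all genes. Some of the 21, IL1R1 among them, were under an FPKM of 1 in parental and so could only be higher in resistant. TNFAIP3, a feedback inhibitor of NF-kB, was at 2.40 in parental, 48.7 in resistant and 9.10 to 10.3 FPKM in sorted libraries. IL1R1, the receptor of interleukin 1, was at 0.575, 16.4 and 2.78 to 3.70. TNFRSF1A, a receptor of tumour necrosis factor, was at 126, 58.0 and 96.1 to 123, and IKBKB, a kinase that activates NF-kB, at 10.5, 6.63 and 8.61 to 9.30. Against the sorted mean 9 were higher and 0 lower, beside 8.26% and 4.94% of all genes, and between sorted mean and parental 5 of 20 were higher, beside 5.46%. Some of those 20, IL1R1 again among them, were measured only through the sorted libraries.

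Of 15 genes that drive CXCL9 to CXCL11, 14 were measured between resistant and parental, with 10 at least 2-fold higher, 0 lower and a median of 1.28, beside 13.5%, 6.9% and 0.09 for all genes. IFNGR1, a chain of the interferon gamma receptor, was at 16.0 FPKM in parental, 77.6 in resistant and 26.4 to 28.6 in sorted libraries. At the low end were IFNGR2, the other chain of that receptor (36.1, 47.8 and 34.3 to 45.1), and IFNAR1, of the type I interferon receptor (11.5, 12.7 and 18.6 to 20.7). IFNG itself was listed at 0 in all 6 libraries. Other interferon ligand genes of the list reached an FPKM of 1 in resistant but not in parental, and so could only be higher there. Against the sorted mean 3 genes were higher and 0 lower, beside 8.26% and 4.94% of all genes. The higher ones include an interferon ligand gene under 1 in every sorted library, which could only be higher in resistant. Between TRA-1-81 positive and negative cells, 0 tested genes of the signalling, protease, NF-kB and interferon lists passed by limma after Benjamini-Hochberg adjustment, and 2 of 21, 3 of 7, 0 of 20 and 2 of 12 had an unadjusted p under 0.05, beside 4.9% of all genes.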

How the data were processed

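RNA was sequenced on a HiSeq2500 from SW1990 cells after extraction with the Absolutely RNA Nanoprep kit, per the labels' protocols. The authors deposited 1 table of gene values whose header names no unit. They were treated as deposited FPKM, the unit Cufflinks writes. Per the submitters' processing notes, the tools were CASAVA 1.8.2, TopHat2 2.0.11 and Cufflinks 2.1.1 and the build was hg19. Their roles and settings were not given in the sources used here. Positions are hg19 with 1 added to the starts, because the spans of 318 of 354 short olfactory receptor genes were multiples of 3 when read as end minus start.

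Values were analysed as log2(FPKM + 1) in Python 3.11.15 and pandas 2.3.3. Repeated symbols were reduced to the entry of highest mean. Differences with 1 library on a side were counted at 1 or more in log2(FPKM + 1) among genes reaching an FPKM of 1 on either side, where the sorted side is the arithmetic mean FPKM. The 2 sorted fractions were tested against each other by limma 3.58.1 (R 4.3.3, mean trend, two-sided, no covariate, Benjamini-Hochberg adjusted p under 0.05 over all genes tested) for genes reaching an FPKM of 1 in 2 or more of the 4 libraries, and the fit was tested on simulated data. No count model was used, since Cufflinks shares fragments between transcripts and whole reads could not be recovered. Alternatives were a pseudocount of 0.5 or 5, no filter or an FPKM of at least 5, quantile normalization, summed repeated symbols, a replicate block, and leaving out each sorted library in turn.

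Every member with an FPKM of at least 1 in any library is named with its values, and the others are named once. Of each other list, the 2 highest and 2 lowest genes between resistant and parental are named among those measured, and all relatives outside the rule. The members and lists were chosen with earlier results of these data known. Promoter sequences are from RefSeq (GRCh38.p14), matched by symbol, with IL8 as CXCL8 and CXCR7 as ACKR3. Shared words were counted in GENCODE v29 transcripts between members only, and words shared with other genes were not counted. A few genes of these lists are not reported here by name.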

Additional observations from a re-analysis of the deposited data

How the results depend on the processing

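No member was at least 2-fold lower in any of the 3 comparisons with 1 library on a side, but with a pseudocount of 0.5 there was 1 in resistant against parental (CXCR6), 1 in resistant against the sorted mean (CXCL12) and 1 in the sorted mean against parental (CXCR6). Quantile normalization also gave 1, CXCR6, against parental in resistant and in sorted cells. It moved the median of all genes between resistant and parental from 0.09 to -0.06. With a pseudocount of 5, which shrinks low genes by construction, 4 members were higher in the sorted mean than in parental, in place of 7. The counts of members higher in resistant were 13 to 16 against parental and 8 to 13 against the sorted mean over all alternatives run.

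Between the fractions, 0 members passed by limma in every alternative except the fit with a replicate block on 0603 and 0610, in which 6 of 12 passed: CCL5, CCL28, CXCR4, CXCL5, CCL22 and CXCL12. That fit called 1484 genes in all, in place of 1. Deviations of same-numbered libraries correlated at 0.654 across 11533 genes, which are not independent replicates, but the labels state no pairing and there are 2 pairs. Leaving out each sorted library in turn, the positive minus negative difference changed sign for 7 members: it ran from -0.47 to 0.20 for IL8, from -0.29 to 0.28 for CXCL1, from -0.14 to 0.45 for CXCL2, from -0.26 to 0.40 for CXCL3, from -0.10 to 0.48 for CXCL5, from -0.00428 to 0.26 for CXCL16 and from -0.25 to 0.56 for CCL20. It stayed between 1.05 and 1.46 for CCL5, between 0.33 and 0.42 for CCL22 and between 0.20 and 0.76 for CCL28. For CXCR4 it stayed between -0.56 and -0.42, and for CXCL12 between -0.70 and -0.25. The fits without 1 library leave a fraction with a lone library, which is assumed to vary like the other fraction. Of 529 recomputed single values, 416 kept their direction and side of the threshold or moved by less than the spread, 95 moved by more, 6 newly passed and 12 changed sign. With 1 parental and 1 resistant library, differences between them have no replicate check, and values under about 0.169 FPKM rest on few fragments.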
